A study of Mus musculus with 20 samples.

Results

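A set of 9 genes for fibrinogen chains, complement components and acute phase proteins were followed in bulk poly(A) RNA-seq of the Cre-less AAV model of clear cell renal cell carcinoma. They are Fga, Fgb, Fgg, C3, C4b, Cfb, Cfi, Saa3 and Hp, taken by gene symbol as genes of this kind that injured kidney makes, and they are 9 of the 54532 genes of the count table. All 9 passed the filter on low counts, as did 15354 genes in all. The 20 libraries are 10 tumors and 10 normal kidney regions. Every library, normal kidney included, came from LSL-Cas9/+; Pax8 Cre/+ mice on a C57BL/6 background, of both sexes, whose kidney was injected with AAV carrying sgRNAs for Vhl, Pbrm1, Keap1 and Tsc1 between the eighth and the twelfth week of age. The Pax8 promoter drives Cre, and with it Cas9, in renal epithelium, so no group came from uninjected mice or from mice without Cas9. The sources describe tumors and normal regions as taken from the same 10 mice.

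In this model the guides were meant to inactivate 4 genes, whose transcripts were measured first. Vhl was 1.4-fold lower in tumors (12.29 to 28.57 against 21.58 to 28.79 CPM, counts scaled to the size of the library) and Tsc1 was 1.53-fold lower, Keap1 was 1.78-fold higher, and Pbrm1 did not pass the test (adjusted p = 0.23). A guide that disrupts the reading frame need not lower the transcript, so these levels do not check the labels. Total counts lay between 14737516 and 26679704 a library. In the comparison of all genes, 3631 were higher in tumors and 3661 lower, or 3000 and 4650 when libraries were scaled by their upper quartile, a scaling that moved the median log2 fold change of all tested genes from -0.02 to -0.14.

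Normal kidneys 5, 7 and 8 and tumor 7 stood apart and are marked throughout. These kidneys had between 1764.6 and 3302.3 CPM of Lcn2, a secreted lipocalin used as a marker of tubular injury, against 9.77 to 232.3 CPM in the other 7. Summed over 10 tubule injury markers, they had 28571.8 to 50278.1 CPM against 2202.2 to 4406.7 CPM, and tumors had 10127.6 to 37287.9 CPM. Most of this sum was Spp1 alone, at 26230.8 to 44331.7 CPM in these kidneys and 2025.5 to 4054.3 CPM in the other 7. Summed over 10 proximal tubule markers, kidneys 5, 7 and 8 had 1337.9 to 3464.3 CPM against 8458.2 to 11987.9 CPM. Tumor 7 had 8691.4 CPM summed over 9 fibroblast markers (other tumors at most 731.7), 391.0 CPM over 10 neutrophil markers (at most 24.0), 2218.5 CPM over 8 adipocyte markers (at most 790.9, in tumor 9) and the lowest proximal tubule sum of the tumors, 1024.4 CPM. For the 9 genes, each result that rests on these libraries is given with and without them, a choice made after the values were seen. Normal kidney 9 also differed, with the lowest TMM scaling factor (0.749) and 0.189 CPM of Cfd, against at least 42.7 CPM in the other normal kidneys. Without it 4052 genes were higher in tumors and 4001 lower, and of the 9 genes still 4 were higher and 1 lower.

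Fibrinogen is a secreted clotting protein of paired alpha, beta and gamma chains, which thrombin turns into the fibrin mesh of a clot. Complement is a cascade of plasma proteins in which the classical, lectin and alternative routes all cleave C3, and which serine proteases such as factor B drive and factor I shuts down. The liver makes most of these proteins in plasma, and hepatocytes raise them during the acute phase response, when interleukin-6 acts through STAT3 and C/EBP proteins. Tubular epithelium can also transcribe the fibrinogen chains, C3 and several acute phase genes after injury.

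The fibrinogen genes lie within 42.1 kb of chromosome 3 (mm10), with Fgg at chr3:83007724-83015049, Fga at chr3:83026076-83033627 and Fgb, on the opposite strand, at chr3:83040141-83049863. The sequence before each start is shown because the 3 chains varied together over the libraries, that of C3 because the tumors highest in C3 were also highest in Fga and Fgg, and those of Saa3 and Saa1 because these neighbours peaked in different libraries. All are from RefSeq on GRCm38.p6, written 5′ to 3′ on the strand of the gene, and end at the base before the gene start in the count table or in RefSeq, whichever comes first. They cover chr3:83025903-83026075 (plus strand), chr3:83049864-83050113 (minus), chr3:83007474-83007723 (plus), chr17:57228137-57228386 (minus), chr7:46715701-46715926 (minus) and chr7:46742981-46743230 (minus). Capitals mark matches to any of the motifs searched. Promoter sequences for 5 of the 9 genes were used here, those of Fga, Fgb, Fgg, C3 and Saa3.
Fga: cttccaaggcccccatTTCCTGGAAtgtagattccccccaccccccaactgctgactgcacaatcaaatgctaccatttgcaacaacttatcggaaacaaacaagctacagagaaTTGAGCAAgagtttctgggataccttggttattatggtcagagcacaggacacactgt
Fgb: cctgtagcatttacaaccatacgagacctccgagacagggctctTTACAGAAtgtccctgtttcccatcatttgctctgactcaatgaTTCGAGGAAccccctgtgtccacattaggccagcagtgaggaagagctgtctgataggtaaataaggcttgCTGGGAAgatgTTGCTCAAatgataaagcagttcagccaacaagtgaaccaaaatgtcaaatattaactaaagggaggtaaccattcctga
Fgg: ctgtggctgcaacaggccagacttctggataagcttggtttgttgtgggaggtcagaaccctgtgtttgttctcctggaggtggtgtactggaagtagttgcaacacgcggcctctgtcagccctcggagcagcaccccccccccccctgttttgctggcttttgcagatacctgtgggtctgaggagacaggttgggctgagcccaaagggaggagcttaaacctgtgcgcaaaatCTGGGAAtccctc
C3: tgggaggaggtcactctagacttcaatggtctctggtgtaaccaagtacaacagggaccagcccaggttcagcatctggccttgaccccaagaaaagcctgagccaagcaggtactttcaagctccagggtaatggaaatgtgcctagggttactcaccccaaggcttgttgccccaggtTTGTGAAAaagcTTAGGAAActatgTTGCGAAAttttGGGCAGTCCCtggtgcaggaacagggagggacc
Saa3: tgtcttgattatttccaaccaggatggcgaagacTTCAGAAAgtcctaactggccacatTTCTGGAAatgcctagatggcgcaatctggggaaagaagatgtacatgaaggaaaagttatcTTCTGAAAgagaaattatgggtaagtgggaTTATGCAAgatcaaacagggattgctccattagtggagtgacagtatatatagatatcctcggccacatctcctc
Saa1: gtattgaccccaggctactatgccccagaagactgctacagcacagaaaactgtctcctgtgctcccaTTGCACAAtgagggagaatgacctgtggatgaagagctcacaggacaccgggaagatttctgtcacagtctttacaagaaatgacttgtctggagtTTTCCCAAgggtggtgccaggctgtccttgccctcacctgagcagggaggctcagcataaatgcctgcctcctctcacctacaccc

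The motifs, searched on both strands in the 250 bases before the RefSeq start, were TTNNGNAA for C/EBP, TTCNNNGAA for STAT3, CTGGGAA for the interleukin-6 response element of acute phase genes, a strict and a looser form of the NF-kB motif, and the HNF1 motif. The interleukin-6 response element was found in Fgb, at 91 to 85 bases before the start, and in Fgg, at 13 to 7 bases before it, and 9.1% of the 32851 promoters of the table held it. The STAT3 motif was found in Fga (TTCCTGGAA) and Fgb (TTCGAGGAA), against 7.02% of all promoters. C/EBP matches numbered 1 in Fga, 2 in Fgb, 3 in C3, 4 in Saa3 and 2 in Saa1, but 36.8% of all promoters held at least 1, so this short motif separates few genes. C3 also held the looser NF-kB motif (4.77% of all promoters), just after its 3 C/EBP matches. The strict NF-kB motif (0.356% of all promoters) and the HNF1 motif (0.371%) were in none of the 6 stretches searched. A match is a run of letters and was not tested as a binding site.

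The 3 fibrinogen chains were highest in normal kidneys 5, 7 and 8. Fga, the alpha chain, was at 86.98 CPM in the lowest normal kidney, 166.4 CPM in the median one and 3624 CPM in the highest, and at 30.49, 143.8 and 648.3 CPM in tumors. Normal kidneys 8, 5 and 7 held 3623.9, 3280.2 and 1105.5 CPM, whereas the other 7 held between 87.0 and 220.5 CPM and no tumor came above 648.3 CPM. Fgb, the beta chain, lay at 28.58, 54.29 and 1581 CPM in normal kidneys and at 8.321, 49.74 and 246.0 CPM in tumors. Kidneys 5, 8 and 7 were again the 3 highest libraries, at 1581.2, 1548.2 and 370.7 CPM. Fgg, the gamma chain, lay at 49.25, 78.01 and 2108 CPM in normal kidneys and at 14.49, 121.5 and 623.0 CPM in tumors. Its 3 highest libraries were the same normal kidneys, and the 2 groups overlapped in 8 of 10 tumors for each chain, with tumors 2 and 9 below every normal kidney.

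Together the 3 chains took 0.768% of all counts in normal kidney 8, 0.725% in kidney 5 and 0.225% in kidney 7. In the other 7 normal kidneys they took 0.018% to 0.0481%, and in tumors 0.00564% to 0.139%. In tumors Fga and Fgg were highest in tumors 5, 6 and 8, where Fga reached 474.4 to 648.3 CPM, followed by tumor 7, and the remaining 6 tumors lay between 30.5 and 152.4 CPM of Fga. Fgb was highest in tumors 8 and 6 (246.0 and 245.3 CPM), followed by tumor 7 (216.5 CPM) and tumor 5 (128.0 CPM).

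Hepatocyte transcripts did not move with fibrinogen. Of 12 hepatocyte markers only 4 passed the filter on low counts, and summed over all 12 normal kidneys 5, 7 and 8 had 9.62 to 12.7 CPM and the other 7 had 12.2 to 74.8 CPM, while tumors had 7.06 to 19.0 CPM. Alb, serum albumin and the most abundant hepatocyte transcript, was at 1.74, 5.88 and 4.25 CPM in kidneys 5, 7 and 8, and its highest value, 58.7 CPM, was in kidney 6, which had 161.5 CPM of Fga. In bulk tissue, fewer cells of a type and less RNA per cell cannot be told apart.

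**Figure D1:**
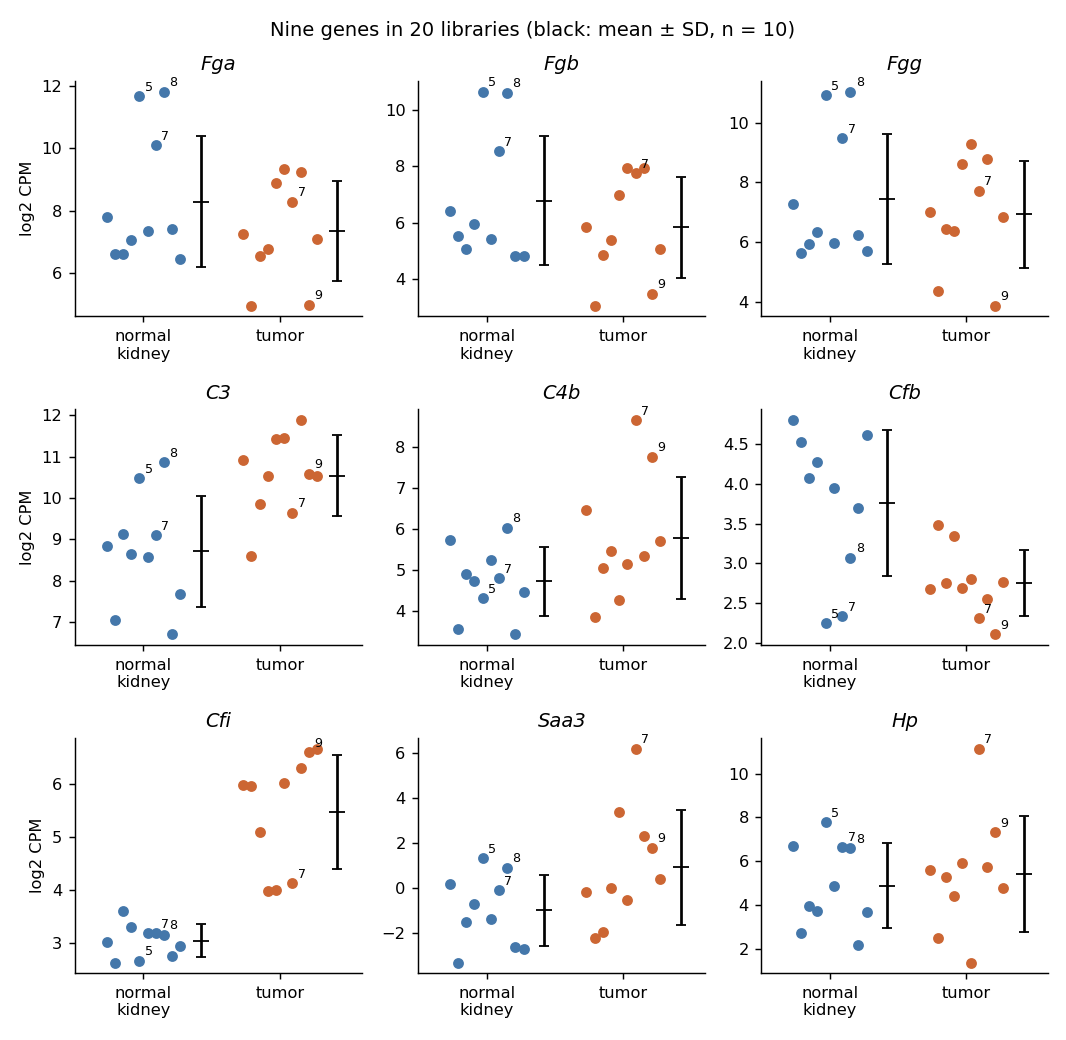
The log2 CPM of 9 genes in 10 normal kidneys (blue) and 10 tumors (orange), each point a library, with the group mean ± SD in black; normal kidneys 5, 7 and 8 and tumors 7 and 9 are numbered. The 3 numbered kidneys are the highest libraries for Fga, Fgb and Fgg and the lowest normal kidneys for Cfb, and every tumor lies above every normal kidney for Cfi.

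With all 20 libraries none of the chains passed the test. By edgeR's quasi-likelihood test the log2 fold change of tumors over normal kidneys was -1.79 ± 0.803 (SE) for Fga (adjusted p = 0.0718), -1.91 ± 0.877 for Fgb (adjusted p = 0.0783) and -1.32 ± 0.824 for Fgg (adjusted p = 0.195). Without normal kidneys 5, 7 and 8 the sign turned for all 3 chains, to 0.91 for Fga (adjusted p = 0.177), 1.13 for Fgb (adjusted p = 0.135) and 1.47 for Fgg (adjusted p = 0.051), and none passed. With every tumor kept, the direction of the fibrinogen comparison thus depended on those 3 kidneys. Tumors 5, 7 and 8, which carry the same numbers, stayed in that fit. They had 474.4, 312.0 and 609.7 CPM of Fga, against 143.8 CPM in the median tumor. Whether the sign would turn without these tumors as well as the 3 kidneys was not tested, and no source states that a number marks a mouse.

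Per kilobase of exon, the beta chain was the lowest of the 3. The median normal kidney had 55.3 CPM per kb of Fga, 37.3 of Fgg and 14.2 of Fgb, and the median tumor had 47.8, 58.1 and 13.1. The count ratio of Fga to Fgb averaged 1.5 ± 0.42 (SD, n = 10) on the log2 scale in tumors and 1.5 ± 0.47 in normal kidneys, a difference of -0.01 (permutation test, two-sided, p = 0.975). The ratio of Fgg to Fgb averaged 1.1 ± 0.57 in tumors and 0.67 ± 0.38 in normal kidneys, a difference of 0.43 that did not pass (permutation test, p = 0.0646). Tumor 7 had the lowest value of both ratios, 0.53 and -0.03. Without it the Fgg to Fgb difference was 0.56 (permutation p = 0.0109), and it also passed without tumor 9 (0.51, permutation p = 0.0301) or normal kidney 9 (0.51, permutation p = 0.0319). In the other 17 of 20 runs that left out 1 library it did not pass. The largest permutation p was 0.119, without tumor 10 (0.35).

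**Figure D2:**
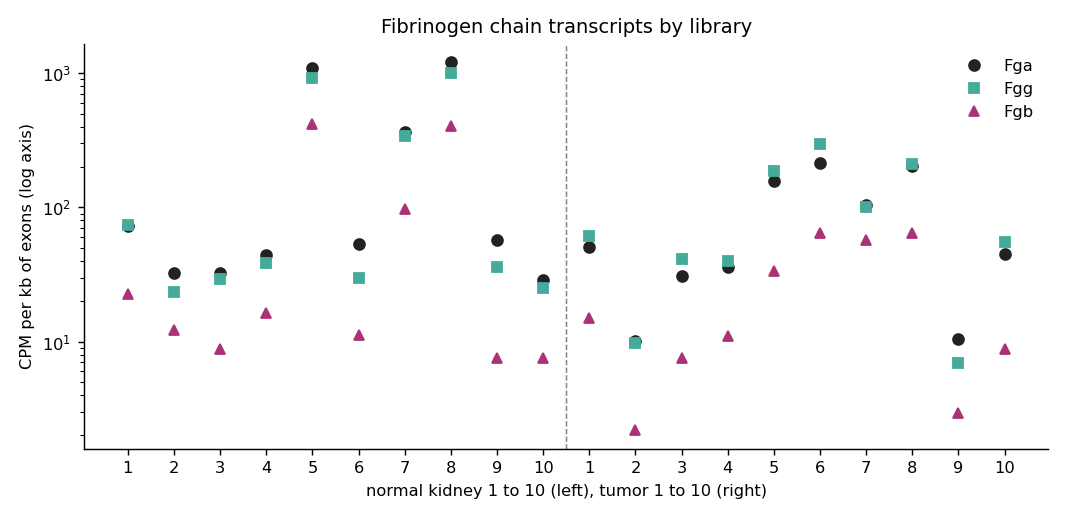
CPM per kb of exons (log axis) of the 3 fibrinogen chains in each library, normal kidneys 1 to 10 left of the dashed line and tumors 1 to 10 right of it. The chains track each other, with Fgb lowest in each library, and peak at 1203.9 CPM per kb of Fga in normal kidney 8.

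Within tumors the chains tracked each other closely. Over the 10 tumors, Pearson's r of log2 CPM was 0.99 for Fga with Fgg (Spearman's rho 0.98), 0.97 for Fga with Fgb (rho 0.96) and 0.95 for Fgg with Fgb (rho 0.93). Among 10 relations computed, permutation p-values adjusted by the Benjamini-Hochberg method were 0.0001, 0.0003 and 0.000367 for r, the first of which rests on the smallest p the resamples can give, and 0.0002, 0.0003 and 0.0012 for rho. Without the 2 tumors farthest from the median of the first gene, r was 0.99, 0.94 and 0.9. The normal kidneys fell into 2 clusters, so r was computed over the 7 without kidneys 5, 7 and 8, where the chains varied little. There r was 0.83 for Fga with Fgg (adjusted exact permutation p = 0.0258), 0.74 for Fgg with Fgb (adjusted p = 0.0948, exact permutation) and 0.55 for Fga with Fgb (adjusted p = 0.305, exact permutation). Without 2 kidneys these became 0.63, -0.44 and -0.2, so the relation in normal kidneys rested on few libraries.

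Havcr1, which encodes the injury marker KIM-1 of proximal tubule, was at 102.4 to 586.0 CPM in tumors and 3.18 to 35.7 CPM in the 7 kidneys. Kidneys 5, 7 and 8, which are not in the r values below, had 163.5, 1346.6 and 128.5 CPM. Its r with Fgb was 0.46 over tumors (adjusted permutation p = 0.305; rho 0.42) and 0.01 over the 7 kidneys (adjusted exact permutation p = 0.981). With C3 it was 0.02 over tumors (adjusted permutation p = 0.981; rho 0.16) and 0.1 over the 7 kidneys (adjusted exact permutation p = 0.981). Havcr1 was thus high in every tumor, while fibrinogen was high in only some of them. Among normal kidneys, both were highest in kidneys 5, 7 and 8.

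Among 13454 other protein-coding genes, those whose log2 CPM, taken as deviations from the group means over the 20 libraries, were most like Fgb were Fga (r = 0.978) and Fgg (r = 0.971), then Ibtk (0.877), Nek7 (0.864) and Vps4b (0.854). Ibtk, an inhibitor of Bruton's tyrosine kinase, was at 257.3, 84.5 and 200.9 CPM in kidneys 5, 7 and 8 and at most 54.0 CPM in the other 7. The libraries share their depth and composition, kidneys 5, 7 and 8 are included and can set these r values, and the values are descriptions.

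Of the 9 genes, 4 were higher in tumors (C3, C4b, Cfi and Saa3), against 23.6% of all genes tested, and 1 was lower (Cfb), against 23.8%. Fga, Fgb, Fgg and Hp did not pass. Without tumor 7 only C3 and Cfi were higher (23.6% of all genes in that fit) and Cfb lower (27.1%), and without tumors 7 and 9 the same 3 genes passed (23.1% of all genes in that fit were higher and 27.4% lower). Without normal kidneys 5, 7 and 8 Hp was also higher, which made 5 higher (26.6% of all genes in that fit) and Cfb lower (25.5%).

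**Figure D3:**
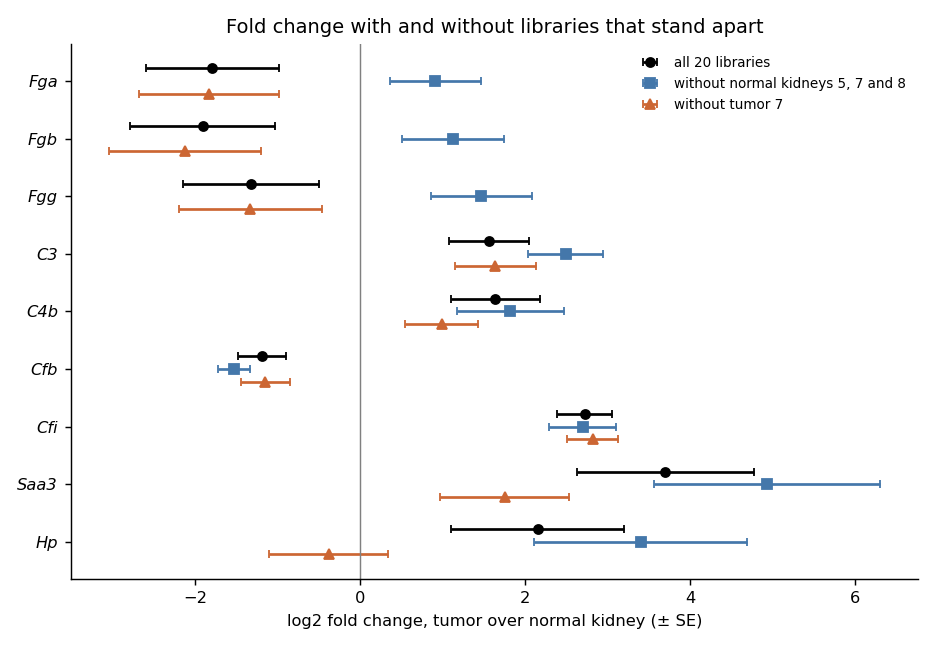
Log2 fold change of tumors over normal kidneys with its SE for 9 genes, from all 20 libraries (black circles), without normal kidneys 5, 7 and 8 (blue squares) and without tumor 7 (orange triangles). The fibrinogen chains cross 0 without the 3 kidneys and Hp crosses it without tumor 7, whereas C3, C4b, Cfi, Saa3 and Cfb keep their side.

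C3, the protein on which the 3 complement routes converge, was the most abundant of the 9 per kilobase in the median library of both groups (83.1 CPM per kb in normal kidneys, 295.0 in tumors). It lay at chr17:57203970-57228136 and at 103.9, 427.2 and 1859 CPM in the lowest, median and highest normal kidney, and at 386.6, 1517 and 3774 CPM in tumors. Normal kidneys 8 and 5 were the highest of their group at 1859.4 and 1423.7 CPM, and 4 tumors lay above every normal kidney. The highest were tumor 8 at 3774.2 CPM and tumors 6 and 5, which also led for Fga and Fgg, while for Fgb tumor 7 lay above tumor 5. C3 rose by 1.56 ± 0.486 (2.95-fold, edgeR adjusted p = 0.0116), and by 2.49 ± 0.453 without normal kidneys 5, 7 and 8 (adjusted p = 0.000159). The most similar genes, by the measure used for Fgb, were Vwa5a (r = 0.944), Hip1r (0.852), Snx10 (0.841), Adgrg1 (0.826) and Zfp664 (0.816). Kidneys 5, 7 and 8 are included and can set these r values, which are descriptions.

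C4b, complement C4 of the classical and lectin routes, lay at chr17:34728380-34743882. It was at 10.75, 27.18 and 65.59 CPM in the lowest, median and highest normal kidney and at 14.31, 42.78 and 404.4 CPM in tumors. Tumor 7 (404.4 CPM) and tumor 9 (218.2 CPM) were far above the rest, and 7 of 10 tumors lay within the range of normal kidneys. The log2 fold change was 1.64 ± 0.541 (edgeR adjusted p = 0.0167) with all libraries, 0.99 ± 0.443 without tumor 7 (adjusted p = 0.0683) and 0.42 ± 0.353 without tumors 7 and 9 (adjusted p = 0.344), so the call rested on these tumors. They also had the highest adipocyte, macrophage and fibroblast marker sums of the tumors, whose part in the C4b result was not tested. C4a, a near copy of C4b, was at most 0.625 CPM in every library.

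Cfi, complement factor I, is the protease that inactivates C3b and C4b. Its gene lies on chr3:129835884-129875332. Normal kidneys had 6.112, 8.465 and 12.07 CPM at the lowest, median and highest, and tumors 15.76, 62.76 and 101.6 CPM. Every tumor lay above every normal kidney, as for 5.87% of all genes tested, with tumors 4, 5 and 7 lowest and tumors 10 and 9 highest. Cfi rose by 2.72 ± 0.332 (6.61-fold, edgeR adjusted p = 8.41e-07), and normal kidneys 5, 7 and 8 were within the range of the other 7. The log2 fold change was 2.7 without these kidneys and 2.82 without tumor 7.

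Cfb, complement factor B, supplies the protease of the alternative route's C3 convertase, and lay at chr17:34856374-34862518. It was at 4.66, 16.03 and 27.69 CPM in the lowest, median and highest normal kidney and at 4.203, 6.529 and 11.06 CPM in tumors. The 3 lowest normal kidneys were 5, 7 and 8, at 4.66, 4.97 and 8.3 CPM, and the other 7 lay at 12.9 CPM or more, above every tumor. Cfb fell by 1.19 on the log2 scale (SE 0.292, edgeR adjusted p = 0.00213), and by 1.53 without the 3 kidneys (SE 0.196, adjusted p = 3.5e-06). Kidneys 5, 7 and 8 thus had high fibrinogen with low Cfb, and C3 was also high in kidneys 5 and 8 but not in kidney 7, at 548.8 CPM.

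The neighbour of Cfb, C2, encodes the equivalent protease of the classical and lectin routes and lies 85 bases from it. It moved the other way, at 9.122 to 21.19 CPM in normal kidneys and 40.55 to 89.74 CPM in tumors, with no overlap (log2 fold change 1.9 ± 0.179, edgeR adjusted p = 2.15e-08). A read-through gene, Gm20547, shares 79.5% of the exonic bases of Cfb and 42.8% of those of C2 and has 0 counts in all libraries. How reads on shared exons were counted is not given in the sources used here, so the levels of both genes are uncertain.

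Saa3, a serum amyloid A made outside the liver by macrophages, adipocytes and epithelia, lay at chr7:46711998-46715700 and was the least abundant of the 9. Normal kidneys had 0, 0.3976 and 2.38 CPM at the lowest, median and highest, where a count of 0, seen in normal kidney 2 alone, still allows up to 3 counts, and tumors had 0.114, 1.058 and 72.4 CPM. Tumor 7 held 1696 counts and tumor 5, the next, 184. Saa3 rose by 3.7 ± 1.07 on the log2 scale with all libraries (edgeR adjusted p = 0.00694), and 4 tumors lay above every normal kidney. Without tumor 7 the difference was 1.75 ± 0.78 (adjusted p = 0.0671) and no longer passed, while without tumor 7 and normal kidneys 5, 7 and 8 it was 2.94 (adjusted p = 0.0105).

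Saa1, a serum amyloid A known as a hepatic acute phase protein, is a neighbour of Saa3 and peaked in other libraries. It was at 83.7 CPM in normal kidney 8 and 32.9 CPM in kidney 5, at most 5.22 CPM in the other normal kidneys and at most 2.09 CPM in tumors, with 0.939 CPM in tumor 7. Saa2 followed Saa1, with its highest values, 6.2 and 5.7 CPM, in kidneys 8 and 5. Saa1 and Saa2 did not pass the filter on low counts and were not tested. They are near copies of each other, and how their shared reads were counted is not given. The 2 promoters printed above for Saa3 and Saa1 differed in their C/EBP matches, 4 and 2, and neither held the STAT3, interleukin-6 or NF-kB motifs.

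**Figure D4:**
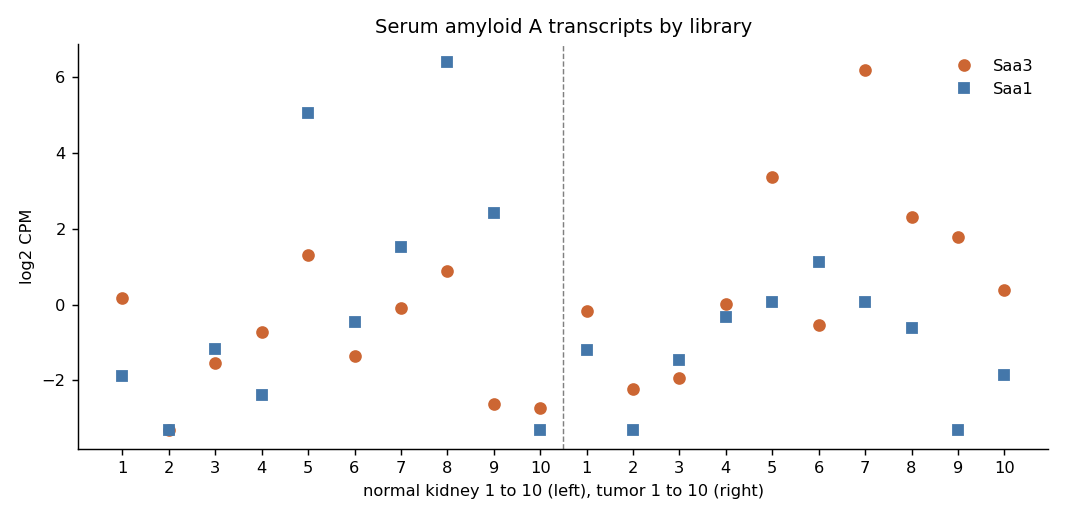
The log2 CPM of Saa3 (orange circles) and Saa1 (blue squares) in each library, normal kidneys 1 to 10 left of the dashed line and tumors 1 to 10 right of it. Saa1 peaks in normal kidneys 5 and 8 and Saa3 in tumor 7.

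Hp encodes haptoglobin, which binds free haemoglobin, and lay at chr8:109575128-109579172. It was at 4.336, 22.27 and 217.9 CPM in the lowest, median and highest normal kidney and at 2.466, 43.31 and 2252 CPM in tumors. Tumor 7 alone lay above the normal kidneys, and tumor 9 followed at 158.8 CPM, within their range. The log2 fold change was 2.15 ± 1.05 (edgeR adjusted p = 0.096), and it turned to -0.38 ± 0.72 without tumor 7 (adjusted p = 0.688). Without normal kidneys 5, 7 and 8, of which kidney 5 was the highest normal kidney, it was 3.4 ± 1.29 (adjusted p = 0.0345), and leaving out tumor 7 as well gave 0.82 (adjusted p = 0.353). Tumor 7 was also the highest library for other acute phase transcripts, with 1651.0 CPM of Serpina3n, 191.7 CPM of Lbp, the lipopolysaccharide-binding protein, and 194.9 CPM of Ptx3.

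The rest of the complement system was described from a list of 54 genes that includes C3, C4b, Cfb and Cfi. Of its 35 tested genes 10 were higher in tumors and 7 lower, where 23.6% and 23.8% of all genes were, with a median log2 fold change of 0.63 beside -0.02 over all genes. Without tumor 7 the counts were 7 and 10 (all genes 23.6% and 27.1%), and without tumors 7 and 9 they were 6 and 12 (all genes 23.1% and 27.4%). Macrophages make several of these proteins and receptors, and 8 of 10 macrophage markers were higher in tumors, with sums of 523.7 to 1838.9 CPM against 192.7 to 690.7 CPM. Their part in the complement result was not tested.

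In the classical route 3 of 7 tested genes were higher, namely C2, C4b and C1qc, a chain of the recognition protein C1q (log2 fold change 1.11, adjusted p = 0.0438, and 0.5 with adjusted p = 0.21 without tumor 7). In the lectin route 2 of 5 were higher and 2 lower. Beside both routes, 23.6% of all genes tested were higher and 23.8% lower. Masp1, a protease that starts this route, was at 3.454 to 28.66 CPM in normal kidneys and 42.3 to 294.3 CPM in tumors, with no overlap (4.56 ± 0.391, edgeR adjusted p = 5.24e-09). Tumor 7 had the lowest Masp1 of the tumors. Fcna, ficolin A, rose by 2.4, with 1.07 and an adjusted p of 0.0513 without tumors 7 and 9. The collectins Mbl1, mannose-binding lectin A, and Colec12 fell by 2.93 and 1.23.

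In the alternative route C3 and Cfp rose and Cfb fell. Cfp, properdin, which stabilises the convertase, had 1.64 (adjusted p = 0.0208) but 0.64 without tumor 7 (adjusted p = 0.154). Cfd, factor D, also known as adipsin from adipocytes, did not pass (adjusted p = 0.868) and was highest in tumors 7 and 9. Of 3 tested terminal components only C7 changed, where 23.8% of all genes tested were lower. It fell by 2.39 (edgeR adjusted p = 0.0114), with -4.37 without tumor 7, which had 35.56 CPM against 1.002 CPM in the median tumor.

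Among 9 tested regulators Cfi rose and 3 fell. Beside these and the receptors below, 23.6% of all genes tested rose and 23.8% fell. Cd59a, which blocks the membrane attack complex, was at 37.77 to 78.36 CPM in normal kidneys and 1.233 to 11.84 CPM in tumors and fell by 3.05 (edgeR adjusted p = 2.54e-07). Clu, clusterin, was at 305.6 to 4834 CPM in normal kidneys and 10.2 to 239.6 CPM in tumors and fell by 3.84. Neither gene's groups overlapped, as for 4.74% of all genes in this direction. Clu was highest in normal kidneys 7, 5 and 8, and fell by 2.35 without them. Of 7 tested receptors, C3ar1 and C5ar1, the receptors of the C3a and C5a fragments, rose by 1.54 and 1.61, and C5ar1 no longer passed without tumor 7 (0.62, adjusted p = 0.239).

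**Figure D5:**
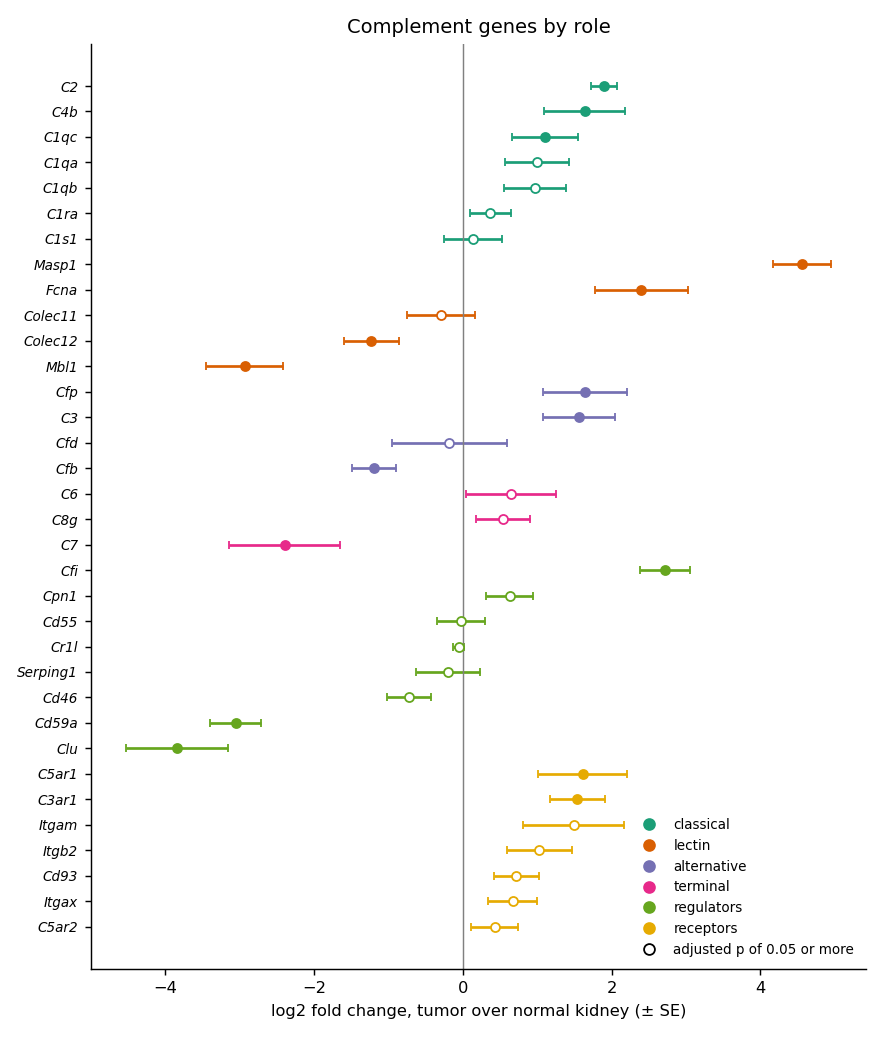
Log2 fold change of tumors over normal kidneys with its SE for tested complement genes, coloured by role, where filled points passed the test. Masp1, Cfi and C2 lie farthest above 0 among genes whose groups did not overlap, and Clu, Mbl1 and Cd59a farthest below it.

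Coagulation genes around fibrinogen were described from a list of 47 genes, of which 38 were tested. In tumors 15 were higher and 9 lower, beside 23.6% and 23.8% of all genes, with a median log2 fold change of 0.31. Without tumors 7 and 9 the counts were 12 and 12, beside 23.1% and 27.4% of all genes. Cpb2, a carboxypeptidase that protects fibrin from lysis, was at 0.4164 to 7.998 CPM in normal kidneys and 44.44 to 450.9 CPM in tumors (6.15 ± 0.56, edgeR adjusted p = 1.31e-08). Anxa2, annexin A2, a plasminogen receptor, rose by 2.35, and Serpinf2, the inhibitor of plasmin, fell by 1.63.

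Of 7 tested receptors of fibrin or fibrinogen 5 were higher, beside 23.6% of all genes tested. Itgb3, integrin beta 3, was at 2.097 to 25.19 CPM in normal kidneys and 73.03 to 103.4 CPM in tumors (3.38 ± 0.38, edgeR adjusted p = 2.74e-07), and Itga5, Itgb1 and Cdh5 rose by 1.73, 0.91 and 0.83. Among clotting factors the kininogens Kng2 and Kng1 fell by 4.7 and 4.31 and factor V, F5, by 3.02, while F13a1, the chain of factor XIII that crosslinks fibrin, rose by 2.52, with 0.97 and an adjusted p of 0.0577 without tumors 7 and 9. Of 8 tested anticoagulants 3 were higher and 3 lower, beside 23.6% and 23.8% of all genes. The largest changes were in Tfpi2, which fell by 3.37, and Serpind1, heparin cofactor II, which rose by 3.03. Serpinc1, antithrombin, fell by 2.67 and Tfpi rose by 1.01.

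Of 18 tested genes on a list of 29 acute phase genes, which includes Fga, Fgb, Fgg, C3, Saa3 and Hp, 6 were higher and 4 lower, beside 23.6% and 23.8% of all genes (median log2 fold change 0.04). Lcn2 fell by 5.0 with all libraries (adjusted p = 0.00491) but had -1.13 (adjusted p = 0.366) without normal kidneys 5, 7 and 8. That fit includes tumor 7, which had 164.8 CPM of Lcn2. The other tumors had a median of 2.37 CPM and at most 38.1 CPM, and the other 7 kidneys a median of 25.9 CPM. Ptx3 rose by 4.99 with all libraries (adjusted p = 0.00364) but had 0.99 (adjusted p = 0.204) without tumor 7. Serpina1a, an alpha-1 antitrypsin with near-identical copies, fell by 3.63, and by 3.88 without the 3 kidneys. Without those kidneys 9 genes of the list were higher and 2 lower (all genes 26.6% and 25.5%), and without tumor 7 the counts were 4 and 5 (all genes 23.6% and 27.1%).

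Upstream of these genes, 32 of 39 listed cytokines, receptors and signalling genes were tested, with 9 higher and 4 lower (all genes 23.6% and 23.8%), or 8 and 10 without tumor 7 (all genes 23.6% and 27.1%). Il6 did not pass the filter on low counts, and its highest values were 19.1 CPM in tumor 7 and 4.91 CPM in normal kidney 5. None of the 3 tested cytokines passed (Lif, Clcf1 and Il1b). Il1rn, the antagonist of the interleukin-1 receptor, was at 0 to 7.414 CPM in normal kidneys and 9.1 to 55.32 CPM in tumors (3.97 ± 0.632, edgeR adjusted p = 2.55e-05), Il22ra1 rose by 1.72, Tnfrsf1b by 1.14, and Il11ra1 fell by 1.26. Relb and Tyk2 rose by 0.8 and 0.67, and Hnf4a, a hepatocyte nuclear factor, fell by 0.67. Stat3, the factor through which interleukin-6 acts, did not pass with all 20 libraries (0.36, edgeR adjusted p = 0.274). It was at 532.7, 306.8 and 338.6 CPM in kidneys 5, 7 and 8, 104.1 to 145.9 CPM in the other 7 and 218.2 to 302.4 CPM in tumors. Every tumor thus lay above each of those 7 kidneys and below each of the 3. The 3 kidneys with the most fibrinogen were also the 3 libraries with the most Stat3. Cebpb, Socs3 and Il6 were also higher in these 3 kidneys than in the other normal kidneys, with kidney 9 as the single exception. Cebpb, a C/EBP factor, was at 214.7, 84.5 and 109.1 CPM in kidneys 5, 7 and 8 and 282.1 CPM in kidney 9. Socs3, a target of STAT3 that limits interleukin-6 signals, was at 151.3, 54.0 and 52.7 CPM there and 60.8 CPM in kidney 9. Il6 was at 4.91, 0.584 and 1.81 CPM in kidneys 5, 7 and 8 and 1.82 CPM in kidney 9. The remaining normal kidneys had at most 56.6 CPM of Cebpb, 18.1 CPM of Socs3 and 0.231 CPM of Il6. The tumors did not show the same order. Tumor 7 had the most of the 3 genes among tumors, with 200.2 CPM of Cebpb, 99.9 of Socs3 and 19.1 of Il6, beside 312.0 CPM of Fga. Tumors 5, 6 and 8, with the most Fga, had 45.5 to 72.0 CPM of Cebpb and 7.36 to 14.2 CPM of Socs3. Their Il6 was 0.111 to 0.429 CPM and their Stat3 260.5 to 274.4 CPM. The part of the interleukin-6 route in the fibrinogen levels was not tested. Kidney 9 had 171.2 CPM of Fga, within the range of the 7 kidneys with little fibrinogen.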

How the data were processed

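Bulk RNA was sequenced from 10 tumors and 10 normal kidneys. Tissue was flash frozen and pulverized, RNA extracted with Trizol, and libraries prepared by poly(A) enrichment and counted per gene by a sequencing company. The authors deposited these raw counts without normalization, on build mm10 per the labels. The aligner, the counter and the use of strand are not given in the sources used here, so counts of overlapping genes and near copies are uncertain. Fgg overlaps the lincRNA Gm30097 on the other strand, which had 240 counts over all libraries against 152598 for Fgg. Rows naming no gene numbered 0, and 0 columns of per-sample values were left unused.

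Counts were scaled with TMM factors and tested with the quasi-likelihood test of edgeR 4.0.16 on all 20 libraries with no covariate, after its filter with a count minimum of 10. The Benjamini-Hochberg adjustment ran over 15354 genes, and a gene was called at an adjusted p below 0.05. CPM use TMM library sizes, and log2 CPM a prior count of 2. Chain ratios had 0.5 counts added, and permutation tests used 100000 resamples. The fits were tested on simulated data. The 9 genes, the gene lists and the tests were chosen with earlier results of these data known. Named list genes are the at most 4 with the largest change per role among called genes that averaged 1 CPM or more in either group, and those named for their values in single libraries were chosen after these were seen. Total counts of 14737516 to 26679704 a library set the precision. Alternatives were other scalings, filters, tools (DESeq2 1.42.0, limma 3.58.1), a replicate block, a minimum fold and leaving out libraries. Some genes that this rule covers are left out of the text and plots.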

Additional observations from a re-analysis of the deposited data

Results flagged for a closer look

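One result stood apart by a test for a single far value (Dixon's, 22 groups of 10 libraries checked, of which chance alone flags about 1 in 20). The log2 ratio of Fga to Fgb counts was 0.53 in tumor 7, where the next lowest tumor had 1.31 and the highest 2.0. The gap was 0.529 of the range of the tumors, above the test's critical value for 10 samples. Tumor 7 was therefore the tumor with the most beta chain per alpha chain, at a ratio of 1.44 where the other tumors had 2.48 to 4.01.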

How the results depend on the processing

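Cfi stayed higher in tumors under every alternative run. C3 and Cfb lost their calls only when a log2 fold change above 1 was required (glmTreat: C3 1.56, adjusted p = 0.249; Cfb -1.19, adjusted p = 0.512), as C4b did (1.64, adjusted p = 0.244). C4b was also lost with limma-voom after quantile normalization (1.01), with quality weights (0.65), with the replicate block (0.91, adjusted p = 0.135), without tumors 7 and 9 (0.42) and without tumor 7 and normal kidneys 5, 7 and 8 (1.14). Saa3 was lost with quality weights (1.64), with DESeq2 (1.66) and without tumors 7 and 9 (1.68). DESeq2 called Fga (-1.81, adjusted p = 0.0354) and Fgb (-1.93, adjusted p = 0.038) lower and turned Hp to -0.41, and quality weights turned Fgg to 0.46. Without normal kidneys 5, 7 and 8 the log2 fold changes were 0.91 for Fga, 1.13 for Fgb, 1.47 for Fgg and 3.4 for Hp, which then passed, and without tumor 7 as well 0.87, 0.92 and 1.46 for the chains. Hp had -0.91 without tumors 7 and 9. Beyond the libraries left out, the causes were not tested.

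Leaving out single libraries gave -2.05 to -1.2 for Fga, -2.16 to -1.3 for Fgb, -1.67 to -0.74 for Fgg, 1.36 to 1.93 for C3, 0.99 to 1.83 for C4b, -1.3 to -1.07 for Cfb, 2.59 to 2.84 for Cfi, 1.75 to 4.12 for Saa3 and -0.38 to 2.65 for Hp. The Fga to Fgb difference ran from -0.06 to 0.11 and the Fgg to Fgb difference from 0.35 to 0.56. Of the 9 genes 2 to 4 were higher and 1 lower, and 3 to 10 genes of the inducer list were lower. Over all genes, 3420 to 4052 were higher and 3474 to 4201 lower in these runs.

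Over all 15354 genes, 3631 were higher and 3661 lower in the main fit. With glmTreat these were 905 and 1086, and with quality weights 5337 and 5407. With DESeq2 they were 3668 and 4218, and with quantile normalization 3941 and 3535. They were 4146 and 4929 of 32383 with no filter, and 3619 and 4294 of 15657 without tumors 7 and 9. Without normal kidneys 5, 7 and 8 they were 4207 and 4038 of 15834, or 4245 and 4557 of 15652 without tumor 7 as well. Counts of called list genes moved by over 1.5 times as follows. Of the 9 genes 2 were higher with quality weights, with glmTreat and without tumors 7 and 9, and 3 were lower with DESeq2 and 0 with glmTreat. Complement genes numbered 4 higher and 3 lower with glmTreat, 14 lower with no filter, 11 lower with quality weights, and 6 higher and 12 lower without tumors 7 and 9. Coagulation genes numbered 7 higher with glmTreat. Acute phase genes numbered 3 higher and 2 lower with glmTreat, 8 lower with no filter, 7 lower with DESeq2 and 2 lower without normal kidneys 5, 7 and 8. Inducer genes numbered 2 higher and 0 lower with glmTreat, 15 higher with quality weights and without normal kidneys 5, 7 and 8, 14 without tumor 7 as well, 8 lower with quantile normalization, with quality weights, with the replicate block and without tumor 7 and those kidneys, and 10 lower without tumors 7 and 9.

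On library totals r was 0.81 for Fgg with Fgb (adjusted exact permutation p = 0.0425) and -0.05 for Havcr1 with Fgb in the 7 kidneys, and -0.02 for Havcr1 with C3 in tumors. Without the 2 farthest libraries r was -0.24 for Havcr1 with C3 in tumors and -0.2, -0.44 and 0.63 for Fga with Fgb, Fgg with Fgb and Fga with Fgg in the 7 kidneys.

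The numbers 1 to 10 are used for tumors and for normal kidneys, and no source states that a number marks a mouse. Deviations of same-numbered libraries correlated at over 0.1 in 9 of 10 pairs and at -0.143 in the ninth, and in 8 of 10 pairs this was higher than the tumor's correlation with any other kidney, a hint of pairing from the data. As neither the labels nor every pair bore it out, the number was not taken as a pairing, and the tests treat libraries of the same mice as independent. With the number as a replicate block the calls of C3 (1.82), Cfb (-1.03), Cfi (2.46) and Saa3 (2.14) stayed, that of C4b did not, and 3979 genes were higher and 3886 lower. The chain ratio differences with the block were -0.01 and 0.43, and neither passed (permutation within numbers, p = 0.984 and 0.125). At these depths Saa3, with at most 48 counts in a normal kidney, is the least precisely measured of the 9.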
